A study of Mus musculus with 6 samples.

Results

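The Pax genes encode 9 transcription factors that bind DNA through a paired domain, and all 9, Pax1 to Pax9, were taken by symbol from the 21938 protein-coding genes of the GENCODE vM21 annotation of mm10. Each gene was given the H3K4me1 peaks that touched its window, which is the gene body with flanks of 5 kb, and distal peaks, which lay up to 100 kb away and had that gene's start site as the nearest protein-coding one. This gave 36 of 16788 peaks in replicate 1, 26 of 12969 in replicate 2 and 25 of 13998 in replicate 3. Nearness does not show which gene a peak acts on.

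The series holds 6 CUT&Tag samples of wild-type mice of strain B6/J2, titled as whisker pads of embryonic day 12. The antibody was to H3K4me1 in 3 samples and was control IgG in the other 3. CUT&Tag tethers a transposase to the bound antibody, so that DNA near the mark is cut out and sequenced. Whole pads were dissociated to single cells before the assay, so each list mixes all cell types of the pad, and more cells with the mark cannot be told apart from more mark per cell. The IgG samples were not analysed here, and nothing in the labels says that the 3 H3K4me1 pads came from different embryos. The source name of replicate 1 is whisker pad, but that of replicates 2 and 3 is adult kidney, against their titles. Both readings are set against marker genes and against Pax2 and Pax8 at the end of the results.

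Monomethylation of lysine 4 on histone H3 marks enhancers, active ones and ones held ready, together with the flanks of active promoters. Pax proteins work early in organ formation, and their genes are known for broad fields of enhancers in and around introns. By protein sequence they form the subfamilies Pax1 and Pax9, Pax2, Pax5 and Pax8, Pax3 and Pax7, and Pax4 and Pax6. Pax3 and Pax7 act in the neural crest, in the facial mesenchyme that the crest forms and in muscle progenitors, and Pax9 is needed in the mesenchyme of teeth and palate. These 3 were taken as the facial members. The other 6 are known mainly from other organs, namely Pax1 from the sclerotome and thymus, Pax2 from kidney, ear and optic stalk, Pax8 from thyroid and kidney, Pax5 from B cells and midbrain, Pax4 from the pancreas, and Pax6 from eye, brain and pancreas. Pax6 is also known in surface ectoderm of the head.

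The results name a few regions from which sequences are shown. Pileup is the number of fragments lying over a base. The sequences below are 200 bases of mm10, plus strand, each centred on the median position of the maximum over the replicates in a region found in all of them. Capitals mark the bases at which the pileup was at its maximum in a replicate's strongest peak in that region. Strength was judged by the pileup summed over a peak, so a weaker peak can have a higher maximum. A maximum outside the 200 bases is not marked. The Pax3 intron 4 sequence thus marks replicates 1 and 2 only, and the strongest Pax7 and the Pax6 sequences replicate 1 only. The first sequence is from a region before Pax1, at chr2:147339859-147340058, where all 3 maxima lay within 6 bp.

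Pax1 upstream: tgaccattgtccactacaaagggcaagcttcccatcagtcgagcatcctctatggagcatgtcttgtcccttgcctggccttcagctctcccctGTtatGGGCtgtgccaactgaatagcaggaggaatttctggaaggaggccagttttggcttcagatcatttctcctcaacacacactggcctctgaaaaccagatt

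The Pax3 sequences come from intron 4, at chr1:78170949-78171148, which held the strongest Pax3 region, and from the only regions beyond the 3′ end that were found in all replicates, at chr1:78017470-78017669 and chr1:78008835-78009034, where the maxima lay within 55 and 94 bp.

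Pax3 intron 4: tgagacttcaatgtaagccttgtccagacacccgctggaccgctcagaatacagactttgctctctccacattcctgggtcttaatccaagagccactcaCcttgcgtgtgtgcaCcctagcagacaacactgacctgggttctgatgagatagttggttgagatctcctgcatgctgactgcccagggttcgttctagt
Pax3 distal, nearer: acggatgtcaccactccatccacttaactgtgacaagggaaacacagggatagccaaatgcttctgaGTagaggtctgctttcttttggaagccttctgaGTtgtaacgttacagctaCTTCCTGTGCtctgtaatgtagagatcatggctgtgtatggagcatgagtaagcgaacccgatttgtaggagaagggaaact
Pax3 distal, farther: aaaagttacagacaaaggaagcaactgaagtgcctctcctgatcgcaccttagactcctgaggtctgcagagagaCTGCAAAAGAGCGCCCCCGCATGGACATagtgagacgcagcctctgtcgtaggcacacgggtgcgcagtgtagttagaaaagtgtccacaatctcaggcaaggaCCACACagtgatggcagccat

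Both Pax7 sequences lie in intron 4. The one at chr4:139826552-139826751 is from the strongest Pax7 region, whose maxima were spread over 14.1 kb, and the one at chr4:139809333-139809532 is from the region whose maxima lay within 94 bp. The highest pileup of the strongest region lay before the Pax7 start in each replicate, outside the bases shown.

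Pax7 intron 4, strongest: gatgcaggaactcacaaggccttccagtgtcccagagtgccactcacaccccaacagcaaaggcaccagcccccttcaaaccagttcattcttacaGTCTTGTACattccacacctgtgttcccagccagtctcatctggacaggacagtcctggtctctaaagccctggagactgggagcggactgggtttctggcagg
Pax7 intron 4, second: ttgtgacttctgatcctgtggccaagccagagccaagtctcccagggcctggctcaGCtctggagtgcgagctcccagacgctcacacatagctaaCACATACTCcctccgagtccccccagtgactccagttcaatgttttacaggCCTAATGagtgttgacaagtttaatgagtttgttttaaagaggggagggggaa

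The Pax6 sequence is from intron 3, at chr2:105680982-105681181, the only Pax6 region found in all replicates.

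Pax6 intron 3: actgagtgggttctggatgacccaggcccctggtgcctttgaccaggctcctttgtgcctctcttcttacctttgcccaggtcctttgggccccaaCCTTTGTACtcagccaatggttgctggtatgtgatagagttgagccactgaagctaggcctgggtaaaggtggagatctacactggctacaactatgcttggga

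Of these, the Pax1 sequence, both distal Pax3 sequences and the second Pax7 sequence are the 4 member regions whose maxima lay within 100 bp of each other in all 3 replicates. The distal Pax3 pair and the second Pax7 sequence were added for that reason after the values were seen, and the others are from the strongest shared region of each gene.

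A Pax gene with a peak in its window was common in these pads. Pax1, Pax3, Pax6, Pax7 and Pax9 had one in all 3 replicates, Pax2 and Pax8 in replicates 1 and 2, Pax5 in replicate 1, and Pax4 in none. The count was 8 of 9 members in replicate 1, 7 in replicate 2 and 5 in replicate 3, where 24.7, 22.4 and 19.4% of all protein-coding genes had a window peak. At least 1 replicate had such a peak for 8 of 9 members and for 28.5% of all genes. For all 3 replicates it was 5 of 9, against 15.4% of all genes. Of the 4009 genes with bodies of 50 to 200 kb, 29.5% had a window peak in all 3. That class holds Pax2, Pax3, Pax5, Pax7 and Pax8, of which Pax3 and Pax7 did. Absence of a peak does not show absence of the mark, because only the strongest 1% of signal blocks was kept and the depth of each library was not measured here.

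The peaks were unevenly spread over the family. Pax3 and Pax7 together held 23 of 36, 16 of 26 and 18 of 25 peaks in replicates 1, 2 and 3. They also held 75.9, 75 and 83% of the total signal of the members' peaks, total signal being the pileup summed over the bases of a peak. All members' peaks together made up 0.214, 0.231 and 0.25% of the signal of their lists.

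The share of a window that lay under peaks, called coverage here, was compared between facial and other members in each replicate. The 3 facial members averaged 41.5, 44.4 and 38.7% in replicates 1, 2 and 3. The 6 others averaged 9.48, 10.3 and 6.54%. The difference was therefore 32.0, 34.1 and 32.2 percentage points, a mean of 32.8 ± 1.17 (SD, n = 3), and it pointed the same way in 3 of 3 replicates. An exact sign-flip permutation test over the replicates, two-sided, gave p = 0.25, the smallest value that 3 replicates allow. The sets overlapped gene by gene in replicate 3, where Pax1 reached 29.9% and Pax7 19.5%. They did not overlap in replicate 1, where Pax1 at 24.6% lay below Pax9 at 29.4%, nor in replicate 2, where Pax6 at 31.2% lay below Pax9 at 36.8%. Across all protein-coding genes the mean coverage was 4.02, 4.12 and 2.68%, and the median was 0 in each replicate.

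**Figure D1:**
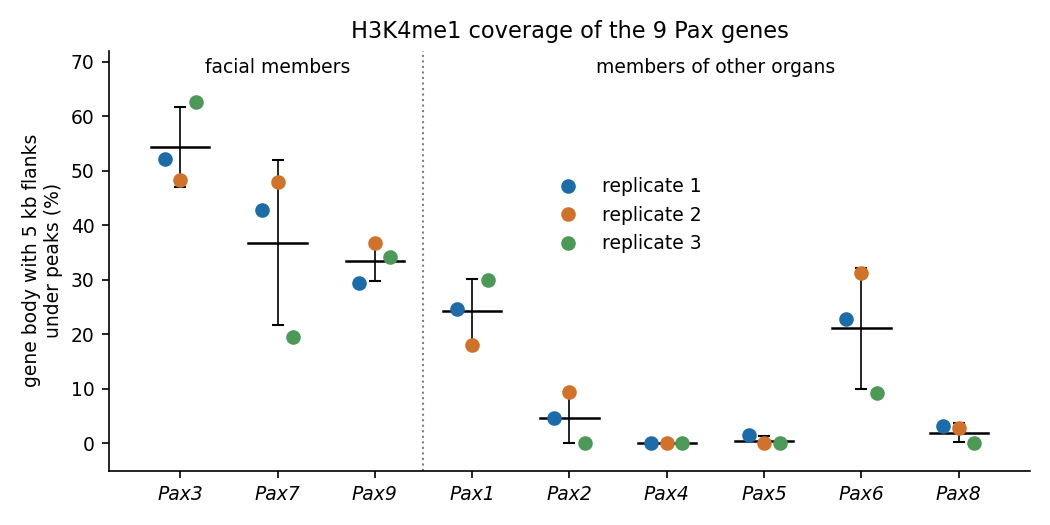
Coverage of each Pax gene, as the percent of its body with 5 kb flanks that lies under H3K4me1 peaks. Points are the 3 replicates, horizontal lines their mean and bars the SD. The facial members Pax3, Pax7 and Pax9 average 54.4, 36.8 and 33.5%, Pax1 and Pax6 24.2 and 21.1%, and the remaining 4 genes under 5%.

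Pax3 had the highest coverage of the family in every replicate, though by only 48.3 against 48.0% for Pax7 in replicate 2. The gene lies at chr1:78101267-78197134 on the minus strand and is 95.9 kb long. Its coverage was 52.2, 48.3 and 62.5% by replicate, a mean of 54.4 ± 7.34% (SD, n = 3). That mean ranked 127 among all 21938 genes and 11 among the 4009 genes of 50 to 200 kb. It had 11, 7 and 7 window peaks and 4, 2 and 7 distal ones. Pax3 was the only member with 5 or more window peaks in all 3 replicates, as 1.61% of all genes had.

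The strongest Pax3 peak lay in intron 4, the 60.0 kb intron from which a sequence is shown above. It was chr1:78164308-78173154 in replicate 1, chr1:78156463-78178004 in replicate 2 and chr1:78156556-78176260 in replicate 3. By total signal these stood at the 96.0th, 98.1st and 99.6th percentile of their lists, or at rank 677, 252 and 55 from the top. By length they ranked 774, 62 and 35. Per base they still stood at the 92.2nd, 73.1st and 93.2nd percentile, so they were high as well as long.

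Peaks covered the Pax3 start site in all 3 replicates, where 5.27, 6.44 and 2.4% of all genes had a covered start in replicates 1, 2 and 3 and 1.78% in all of them. The merged region there ran over chr1:78181667-78205452, from before the start into intron 4, and was made of 9 peaks. Intron 5 had less, with 9.86, 15.9 and 10.8% of its 9.47 kb under peaks. Intron 7, near the 3′ end, was again covered by 67.2, 47.7 and 73.6%.

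Most distal peaks of Pax3 lay far beyond its 3′ end, with maxima 171 to 194 kb from the start, in the interval before Epha4, a gene for an ephrin receptor that lies 586 kb from Pax3. The exceptions were a peak 5.78 kb before the start in replicate 1 and peaks 10.7 and 16.6 kb beyond the 3′ end in replicate 3. The regions chr1:78014842-78019739 and chr1:78005967-78014689 were found in all 3 replicates, with maxima 180 and 188 kb from the Pax3 start. The nearer stood at the 62.4th, 56.2nd and 79.1st percentile and the farther at the 84.6th, 76.8th and 88.6th. Their maxima moved by 55 and 94 bp between replicates. They are described for that closeness, and the median over the 15 member regions found in all replicates was 1611 bp. The outermost, chr1:78002819-78005615 in replicate 3, was 95.7 kb from the gene body and so the nearest to the 100 kb limit from inside. Just outside were peaks near Pax9 in replicates 3 and 1, at 109 and 110 kb.

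Pax7, the paralogue of Pax3, lies at chr4:139737062-139833528 on the minus strand and is 96.5 kb long. Its coverage was 42.8, 48.0 and 19.5% by replicate, a mean of 36.8 ± 15.2% (SD, n = 3), which ranked 461 of all genes. Replicate 3 was the low one, with 4 window peaks against 7 and 6. The replicate 3 value fell below that of Pax1 in the same list.

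By total signal, the strongest Pax7 peak reached intron 4 in each replicate. It was chr4:139816858-139829635 in replicate 1, chr4:139816921-139839930 in replicate 2 and chr4:139819568-139827587 in replicate 3. Their total signal stood at the 94.9th, 98.0th and 80.6th percentile. In replicate 2 the maximum of this peak lay 3.58 kb before the start. In replicates 1 and 3 a separate peak had its maximum before the start, at -3.53 and -3.04 kb. Its maximum pileup was the higher one, at 72 against 48 in replicate 1 and 33 against 32 in replicate 3. The start site itself was covered in replicate 2, and the nearest peak lay 0.327 kb away in replicate 1 and 2.44 kb away in replicate 3. The second region in intron 4, chr4:139804456-139815064, stood at the 91.8th, 89.5th and 72.1st percentile.

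The paralogues were alike in some introns and not in others. In both, the strongest region reached into intron 4, which is the longest intron of each at 60.0 kb in Pax3 and 43.9 kb in Pax7. The highest pileup of that Pax7 region nonetheless lay before the start in each replicate. Coverage of intron 4 was 53.6, 54.0 and 68.1% in Pax3 and 57.2, 61.4 and 28.9% in Pax7. In both, intron 5 had less, with none of the 3.56 kb intron 5 of Pax7 under a peak. Intron 7 had more again, with 33.2, 33.8 and 18.2% in Pax7. Intron 6 was wholly under peaks in all replicates at Pax3 and had none at Pax7. Introns 1 to 3 of Pax7 were bare in replicate 3, and introns 1 and 2 had only 0 and 1.76% under peaks in replicate 1. The start was covered in 3 of 3 replicates at Pax3 and in 1 of 3 at Pax7. Beyond the gene ends Pax7 had a single weak distal region, chr4:139851375-139855108, in replicates 1 and 2 at the 9.27th and 21.2nd percentile, and none of the 3′ kind seen at Pax3.

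**Figure D2:**
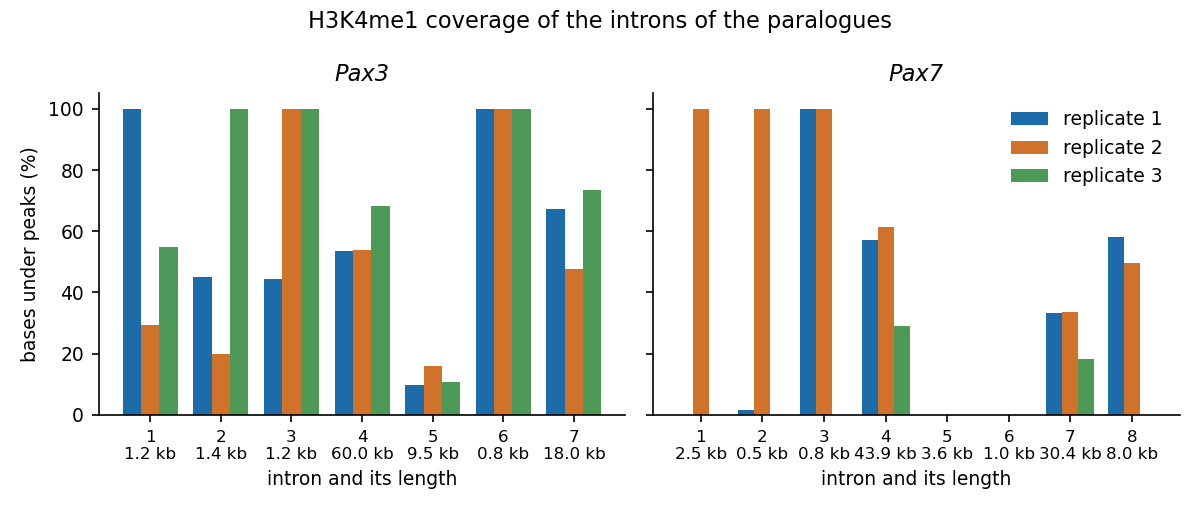
Percent of the bases of each intron under H3K4me1 peaks in Pax3 and Pax7, by replicate, in the longest coding transcript of each gene, with intron lengths under the axis. In both genes intron 4 is the longest and is covered by between 28.9 and 68.1%, and intron 5 has less.

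**Figure D3:**
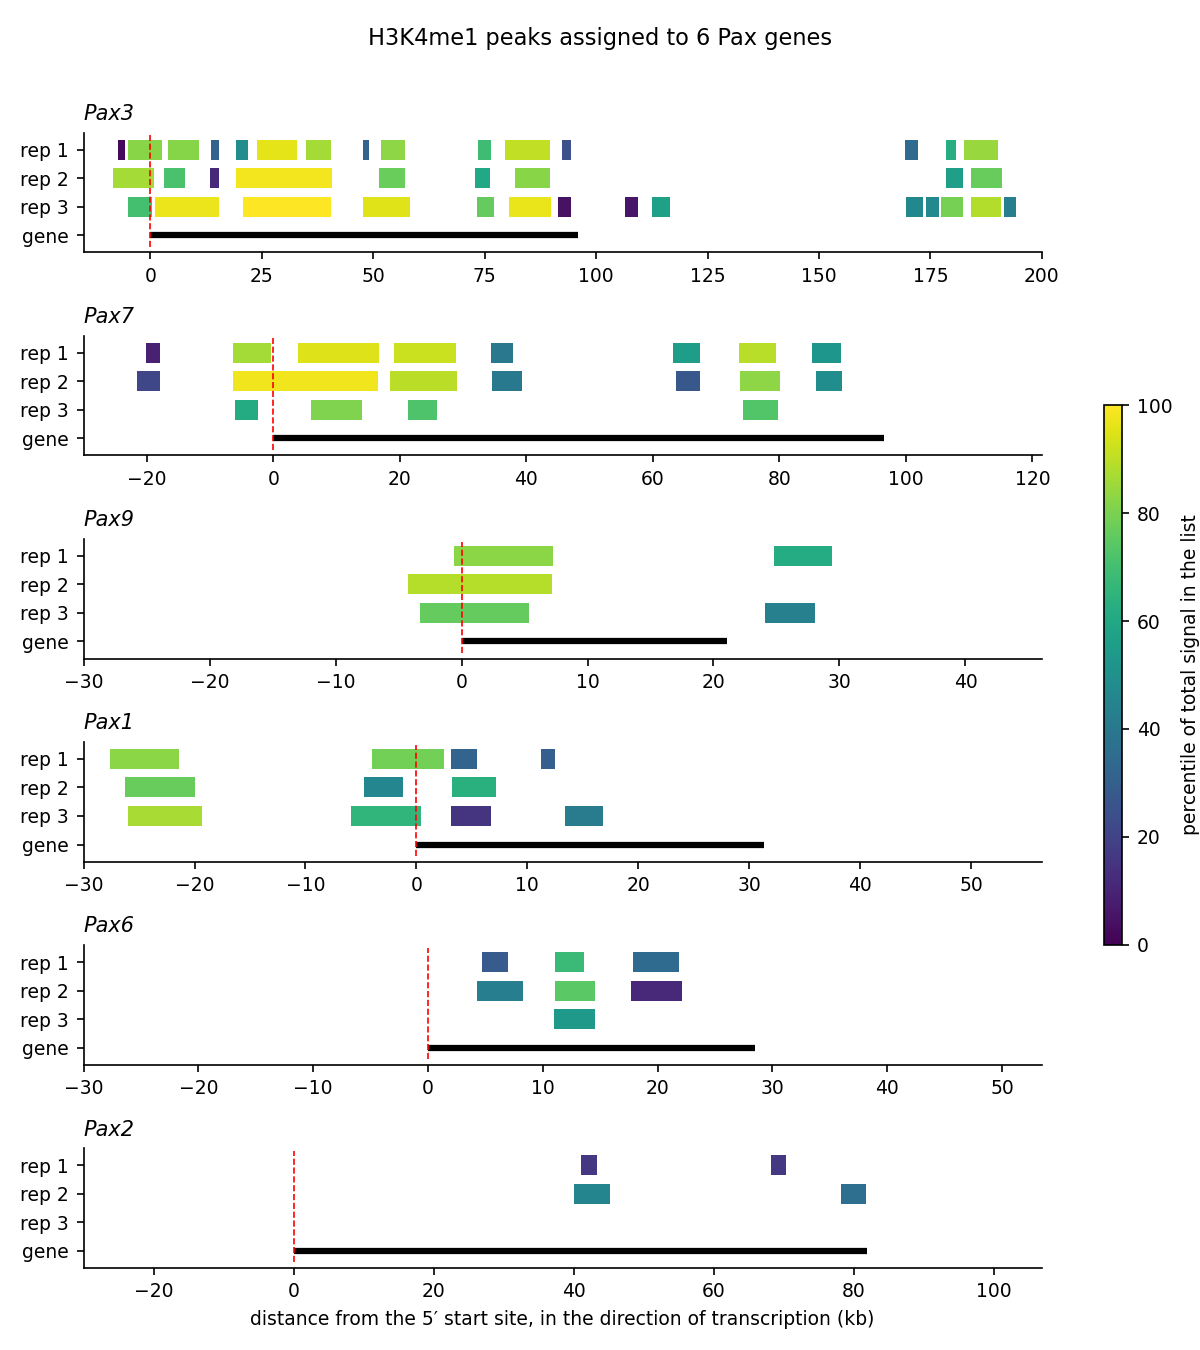
Peaks assigned to 6 Pax genes, drawn along the direction of transcription from the 5′ start site at 0 (dashed line), with 1 row per replicate, the gene body as a black bar, and a distance scale of its own for each gene. Colour gives the percentile of a peak's total signal within its list. The Pax3 peaks beyond 150 kb are the farther ones of its distal peaks, and the upstream Pax1 region lies at about -22.0 kb.

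Pax9, at chr12:56691767-56712822 on the plus strand, had 1 main region. Its coverage was 29.4, 36.8 and 34.2%, a mean of 33.5 ± 3.74% (SD, n = 3), the least spread among the members found in all replicates when set against its mean. The region chr12:56687537-56698989 covered the start site in all 3 replicates, and introns 1 and 2 were wholly under the peak in each. Its peaks stood at the 82.5th, 88.8th and 76.2nd percentile by total signal, but their mean percentile per base was only 25.5, so they were long rather than high. A further peak beyond the 3′ end, in replicates 1 and 3, lay inside Slc25a21, a mitochondrial carrier gene whose body overlaps that of Pax9.

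Pax1, the paralogue of Pax9, was the best covered of the other members. It lies at chr2:147361925-147393295 on the plus strand. Its coverage was 24.6, 18.1 and 29.9%, a mean of 24.2 ± 5.91% (SD, n = 3), so its highest replicate lay just above the lowest of Pax9. The start was covered in replicates 1 and 3, and in replicate 2 the nearest peak was 1.18 kb away.

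The strongest Pax1 region was distal, at chr2:147334265-147342605, with the maximum at -22.0 kb. It stood at the 82.7th, 76.6th and 86.9th percentile by total signal, above each Pax1 window peak of the same replicate. Its maxima fell within 6 bp, the tightest of the 15 member regions found in all replicates. Peaks still farther off and nearest to the Pax1 start, which lie beyond the 100 kb limit and were not counted, numbered 2, 2 and 7. Pax9 had 2, 1 and 2 such peaks beyond the limit. Pax1 and Pax9 thus both had peaks at or near the start, and differed in that Pax9 had no distal peak within the limit.

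Pax6, at chr2:105668900-105697364 on the plus strand, had coverage of 22.8, 31.2 and 9.29% by replicate, a mean of 21.1 ± 11.1% (SD, n = 3). Its 5′ start was not covered in any replicate, and the nearest peaks lay 4.73, 4.27 and 11 kb inside the gene. Other coding starts of Pax6 were not examined for coverage. The region in intron 3, chr2:105679894-105683477, stood at the 67.6th, 74.6th and 54.3rd percentile. Those in introns 1 and 7 were found in replicates 1 and 2 and not in replicate 3. Pax4, its paralogue, had no peak in its 7.02 kb body or its flanks and none assigned to it as distal. The nearest peaks lay 101, 26.8 and 32.0 kb from its start.

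The subfamily of Pax2, Pax5 and Pax8 was sparse. Pax2 had coverage of 4.73, 9.44 and 0% in replicates 1, 2 and 3, and the region that replicates 1 and 2 shared lay in intron 5. Pax8 had 3.17, 2.79 and 0%, from 1 peak beyond its 3′ end whose nearest start site is that of Psd4. Pax5, at 186 kb the longest member, had 1 peak in intron 7 in replicate 1, for a coverage of 1.56%. The 5′ start sites of these 3 genes were not covered in any replicate, and their other coding starts were not examined for coverage. The strongest of their peaks stood at the 50.4th percentile.

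Joining overlapping peaks of the 3 lists gave 35 member regions, of which 15 were found in all replicates. That is 42.9%, against 46.3% of all 19251 regions, so the members' regions recurred about as often as others. The facial members had 11 of 22 in all replicates and the others 4 of 13. Those found in all replicates were 7 at Pax3, 3 at Pax7, 3 at Pax1 and 1 each at Pax9 and Pax6. The positions of the maxima were within 100 bp in 4 of the 15 (26.7%), against 20.7% of all such regions. The members' median spread of the maxima was nonetheless wider, at 1611 bp against 531 bp, so the maxima of Pax regions were not tighter in general.

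Short sequence motifs were counted on both strands in 200-base windows at the 15 member regions and at 8916 of the regions found in all replicates, leaving out 1 on mitochondrial DNA. CTTTGA, the core of TCF and LEF sites, was in 3 of 15 member windows (20%) and in 11.7% of all windows. ACAAAG, a Sox core, was in 4 of 15 (26.7%) and in 14.7% of all. The E-box CAGATG was in 3 of 15 and in 19.4% of all. No member window held the homeodomain core TAATTA, the E-box CAGCTG or the AP-2 form GCCNNNGGC, which 2.47, 17.5 and 8.93% of all windows did. These are counts over 15 windows, and a match is not a site in use. Base composition was near that of all windows, with a median GC content of 53% against 52%.

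Pax3 and Pax7 moved in opposite ways between replicates 2 and 3. For each region found in all replicates, its share of the list's total signal in replicate 3 was divided by that in replicate 2. The log2 ratio was above 0 in 7 of 7 Pax3 regions, from 0.45 to 1.19. It was below 0 in 3 of 3 Pax7 regions, from -1.27 to -0.53. The Pax9 and Pax6 regions also had ratios below 0, at -0.76 and -0.65.

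These ratios went together with GC content. The Pax3 regions had a median GC content of 42.5% and the Pax7 regions 52.7%. Over all 8917 regions, split into 10 groups by GC content, the median log2 ratio ran from 0.92 in the group of 41.4% GC to -0.90 in the group of 54.5%. Set against the median of their own GC group, the Pax3 regions lay between -0.47 and 0.36 with 3 of 7 above it, and the Pax7 regions between -0.41 and 0.05 with 1 of 3 above it. Within GC groups, then, the Pax3 regions lay on both sides of the median, and the Pax7 ratios were nearer to 0 than when taken alone. The part of GC content in the lower coverage of Pax7 in replicate 3 was not tested further.

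**Figure D4:**
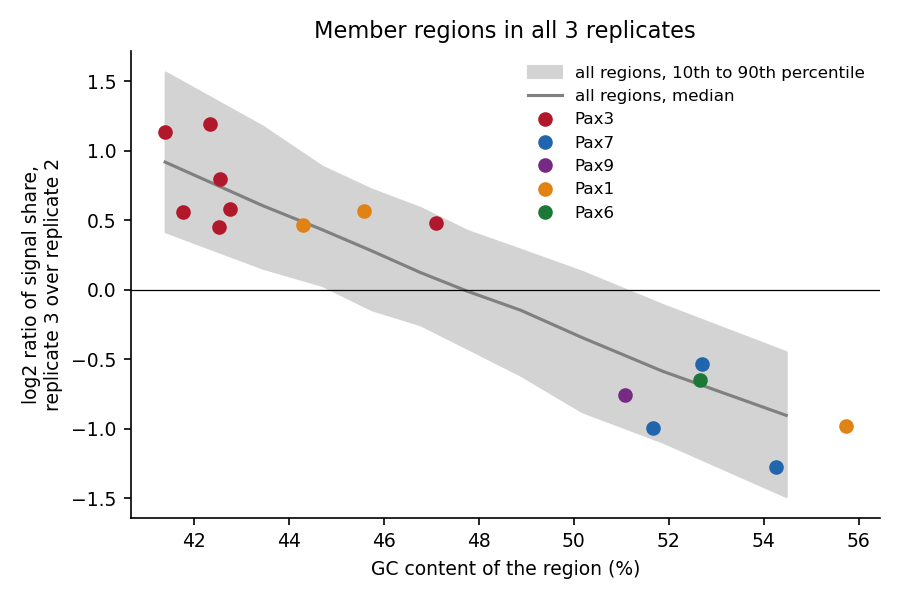
Log2 ratio of the share of list signal, replicate 3 over replicate 2, against the GC content of each member region found in all replicates. The grey line joins the medians of 10 GC groups of all such regions, with the 10th to 90th percentile as a band. The Pax3 regions are above 0 at low GC and the Pax7 regions below 0 at high GC, as the medians are.

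The other genes of the Pax pathways were taken as lists, whose counts stand beside 24.7, 22.4 and 19.4% of all protein-coding genes with a window peak in replicates 1, 2 and 3, and 15.4% in all of them. Of 12 genes whose products work with Pax proteins in a shared network, among them Eya1 to Eya4, Dach1 and Dach2, 7, 8 and 7 had a window peak in replicates 1, 2 and 3, and 6 in all of them. Six2, a homeobox factor of that network, had a mean coverage of 86.7%, while Eya1 and Eya2, which are cofactors, had 18.0 and 16.4%. Of 10 partners and targets in face and somite, 7, 8 and 7 had one. Among these, Msx1, a homeobox partner of Pax9 in tooth mesenchyme, had 88.5%, Osr2, a palate factor, 66.2%, and Bmp4, a growth factor gene, 48.5%. Myf5, a muscle determination gene downstream of Pax3, had 46.3%, and Myod1 had no peak. The bodies of Six2, Msx1, Osr2, Bmp4 and Myf5 are only 3.23 to 7.21 kb long, and each value came from 1 or 2 peaks per replicate. Eya1 and Eya2 have far longer bodies and had more peaks than Six2 in every replicate, despite their lower coverage. In replicates 1, 2 and 3 Eya1 had 5, 5 and 6 window peaks and Eya2 had 9, 6 and 6.

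The lists for other organs differed from each other. Of 16 genes of kidney, thyroid, midbrain and B cells, 6, 6 and 4 had a window peak, and 4 in all replicates, namely Gata3, Sall1, Gdnf and Tg. Of 11 genes of eye and pancreas, 0, 1 and 0 had one, the one being Isl1 in replicate 2. These lists were chosen with earlier results of these data known, so the counts only describe where Pax partners carried the mark.

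Of the 18 genes on either side of the members, 6 (33.3%) had a window peak in at least 1 replicate, near the 28.5% of all protein-coding genes. No window peak lay over the nearest non-overlapping neighbours of Pax7, Tas1r2 and Klhdc7a, nor over those of Pax9 (Nkx2-9 and Prps1l3), Pax1 (Nkx2-2 and Foxa2), Pax2 (Hif1an and Slf2) or Pax5 (Melk and Zcchc7). Around Pax3, Epha4 had 13.6, 18.9 and 23.8% coverage and Sgpp2 8.27, 7.81 and 7.91%. Next to Pax6, Rcn1 had 23.7, 25.1 and 9.38% and Elp4 none. Of the neighbours of Pax8, Psd4 had 3.60, 3.16 and 0%, from the same peaks that were counted for Pax8, and Cacna1b had 1.56, 0 and 1.67%. Next to Pax4, Fscn3 had none and Snd1 had 6.14, 7.15 and 7.03%.

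Among genes of like length, the coverage of Pax3 over the 3 replicates was nearest to that of Bcl11a, Zfp608 and Nxn, at distances of 13.2, 13.9 and 14.8 percentage points. Pax7 was nearest to Nkd1, Bmp7 and Cuedc1, at 8.11, 8.56 and 9.13 points. Pax9 was nearest to Mef2d, Glis2 and Olfml3, at 6.09, 6.18 and 6.19 points. Likeness over 3 replicates of 1 tissue says nothing of shared control.

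The tissue was checked with marker genes. Their counts stand beside 24.7, 22.4 and 19.4% of all protein-coding genes with a window peak in replicates 1, 2 and 3. Of 10 facial mesenchyme markers, 10, 9 and 10 had a window peak in replicates 1, 2 and 3, and of 6 facial muscle markers 4 in each. Of 10 epithelial markers 7, 7 and 3 had one, with summed coverage of 133, 139 and 46.9 percentage points, and of 6 glia and pigment markers 2, 2 and 1. Epcam, Krt14 and Foxd3 were at 0 in all replicates, while Grhl3, Krt5, Krt8 and Krt18 of the epithelial list had mean coverage of 44.3, 25.7, 13.7 and 12.4%, and Sox10 and Erbb3 of the glial list 27.3 and 8.15%. The epithelial and glial lists, like Pax7 and Pax6, were lowest in replicate 3, and their part in the result was not tested. Of 6 endothelial markers 3, 2 and 2 had a peak, of 6 neuronal markers 0, 1 and 0, of 6 markers of eye and olfactory placode 0, 1 and 0, and of 4 blood markers none.

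For the samples whose source name is adult kidney, Pax2 and Pax8, which mark nephron lineages, were read beside 15 adult kidney markers. Pax2 and Pax8 had 2 and 1 peaks in replicate 1, the sample named as whisker pad. They had 2 and 1 in replicate 2, and 0 and 0 in replicate 3, both named as kidney. The kidney markers had a window peak in 4, 4 and 3 of 15, near the 24.7, 22.4 and 19.4% of all protein-coding genes. Their summed coverage was 73.8, 84.0 and 46.3 percentage points. Those with a peak were Aqp1, a water channel of many cell types with a mean coverage of 49.0%, and Aqp2, Slc12a1 and Cubn with 11.7, 3.88 and 3.43%. Umod, Nphs1, Lrp2, Slc34a1, Slc12a3 and Cdh16 were among the 11 kidney markers at 0 in all 3 replicates. Neither the Pax genes of the kidney nor the marker list were higher in both replicates named as kidney than in replicate 1, and the facial mesenchyme markers were marked in all 3, so the titles were used.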

How the data were processed

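The authors called H3K4me1 peaks in each replicate with SEACR in stringent mode, without IgG, keeping the top 1% of signal blocks. The submitters' processing notes name Bowtie2 2.3, SAMtools 0.1.19, bedtools, SEACR 1.3 and mm10, without their roles. Each deposited list gives the total signal and the maximum signal of a peak in pileup units not scaled to depth, so signals were compared as percentiles within a list or shares of its total, which was 822360552, 985881531 and 744342185 units in replicates 1, 2 and 3. The lists hold no read numbers. Peak numbers follow the number of blocks and do not measure enrichment.

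Peaks were assigned to genes by their overlap with the body and 5 kb flanks, or by the position of the maximum for distal peaks, using 54327 protein-coding start sites. A peak over the windows of 2 genes was counted for both. Peaks of the replicates were merged at 1 bp of overlap. Introns were those of the longest coding transcript. All coordinates are mm10, 1-based, and every peak ended within its chromosome. Python 3.11.15, pandas 2.3.3, numpy 2.4.6 and samtools 1.23.1 were used, and the code was tested on simulated peaks.

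The genes named are the 9 members, their neighbours, the genes most like each facial member in coverage (Euclidean distance, body length within 1.5 times) and members of the marker and pathway lists. The values of some listed genes are not reported singly here. The members, the lists and the facial split were chosen with earlier results of these data known. Tests over genes were not made. The exact sign-flip test takes the 3 pads as replicates, and their spread may be technical. Alternatives changed the window, the distance limit, the peak set, the overlap, the signal measure, the facial split and the replicates used.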

Additional observations from a re-analysis of the deposited data

How the results depend on the processing

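Of 73 values recomputed under alternatives, 62 were within the tolerance for their kind and 11 were not. The tolerance was 1 SD over replicates for values and a factor of at most 1.5 for counts. For the tested facial difference it was the same direction, whatever its size or p-value. With so few replicates, leaving out 1 replicate cannot move a mean over them by 1 SD. The mean coverages without 1 replicate, over the members and for single genes, therefore had to be within tolerance. They are counted among the 62 but do not test how robust the coverage is. No difference reversed. With the stronger 50% of each list the mean number of assigned peaks fell from 29 to 17.7. The median over the 5 members found in all replicates of the percentile of the strongest window peak was 82.5 by total signal, 57.3 by maximum signal and 50.3 by total signal per base. By these 2 measures Pax3 stood at 93.4 and 86.1, Pax7 at 61.8 and 50.3 and Pax9 at 48.0 and 25.5, so the high ranks of Pax7 and Pax9 by total signal go with the length of their peaks. The facial members exceeded the others in mean coverage, as a share of the window, under every alternative run. From 32.8 points the difference fell to 26.6 with 20 kb flanks and to 13.2 with 100 kb flanks, and was 26.4 to 36.8 points with 1 facial member left out at a time, an alternative chosen after the data were seen. Without 1 replicate it ranged from 32.1 to 33.2 points, the number of members with a peak in the remaining replicates from 5 to 7, the mean number of peaks from 25.5 to 31 and the mean coverage over the members from 18.7 to 20.9%. With at least 50% overlap of both peaks in every pair, 10 member regions were found in all replicates in place of 15. No paired analysis was possible because only 1 group, H3K4me1, was analysed here. Without read numbers, a missing peak at Pax2, Pax4, Pax5 or Pax8 cannot be told apart from one below the 1% threshold.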
